A study of Nasonia vitripennis with 79 samples.

Results

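The genes Dsx (doublesex) and Fru (fruitless) were followed through bulk RNA sequencing of Nasonia vitripennis, a parasitoid wasp, in heads and in abdomens. They were chosen by name, as genes that carry out sexual differentiation, and are 2 of the 14621 genes in the deposited count table. Every wasp was of the WOM strain, a polyploid line founded by RNA interference against a sex determination gene, which was not analysed here, and was sampled 1 day after it emerged. Females carried 2 chromosome sets (diploid) or 3 (triploid) at generation F2 or F14. Males carried 1 set (haploid) or 2 (diploid) at generation F3 or F15. F2 and F3 are called early and F14 and F15 late. Since males came 1 generation after the females they are set against, sex and generation number cannot be told apart fully. The 15 groups used held 74 of the 79 libraries, 5 in each group except 4 in F14 triploid female abdomens. The other 5 libraries, labelled F2 diploid female abdomen, were left out: in them 4 head, eye and brain markers (Lop1, Syt1, Pdf and nAChRa10) summed to 2614 to 5579.8 CPM and the germ line genes oskar and nanos to 2.703 to 42.0 CPM. The labels do not say whether libraries of a group came from separate cultures or pools, so p-values measure the spread between these libraries, which may be partly technical. Libraries are named here as in the deposited tables (D31, for example).

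Dsx and Fru encode transcription factors at the end of the insect sex determination cascade. The splicing factor Transformer (Tra), active in females, directs their transcripts into female forms, and without it male forms are made. In Drosophila melanogaster, Dsx shapes the sex differences of body and reproductive organs, and Fru those of the nerve circuits for courtship. In Nasonia, non-coding changes at Dsx have been tied to the size of male wings.

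Levels are CPM (counts scaled to a common library total, with TMM scaling between libraries), and a gene was called at an adjusted p under 0.05 over all genes tested. A count sums all transcripts of a gene, so male and female forms are not separated in it. RefSeq lists 8 transcripts for Dsx (gene ID 100302336), 16 for Fru (100118528) and 2 for Tra (100121203). Libraries held 12.6 to 94.98 M counts, with 213 to 16284 of them on Dsx and 495 to 8272 on Fru. Fru counts share reads with overlapping genes: Fru was not a whole number in 25 of 74 libraries, the read-through gene Nvu1-fru reached at most 8.66% of the Fru count, and the overlapping RNA LOC103317310 had a median of 6.68% and a maximum of 22.96%. Nvu1, which overlaps Nvu1-fru but not Fru, was not whole in 23 libraries, at a median of 8.32% and a maximum of 237% of the Fru count. Counts of Fru are uncertain, because the strand setting of the counting is not stated. Dsx and Tra were whole in all 74. The head markers summed to 2039 to 20876 CPM in the head libraries and to 3.08 to 412 CPM in the abdomens used, and the germ line genes to 260.3 to 965 CPM in female abdomens and at most 50.5 CPM in every other library used.

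In CPM, Dsx was most abundant in male abdomens, beside F14 triploid female abdomens, and least abundant in F2 triploid female abdomens. On TPM, F14 triploid female abdomens (212) and F14 diploid female heads (155) had means above every male abdomen group (at most 147), with libraries that overlapped those of F3 haploid male abdomens, and F2 triploid female abdomens were again lowest (6.98). In bulk tissue, fewer cells of a type and less RNA per cell cannot be told apart. The CPM of the F3 haploid male abdomens stood at 549, 516, 465, 527 and 463, and the F3 diploid male abdomens at 519, 506, 424, 479.8 and 388. The F15 haploid male abdomens stood at 461, 469.6, 444, 473 and 485, and the F15 diploid male abdomens at 438, 539, 348, 273 and 319. These 4 groups overlapped, with means from 383 ± 105.8 to 504 ± 38.4 CPM (SD, n = 5 each). Male heads held less: 99.2, 141, 129, 133 and 141 CPM in F3 haploids, 129, 119.3, 108.2, 118.9 and 116.7 in F3 diploids, 164, 149, 172, 150.0 and 157 in F15 haploids and 134, 132, 155, 155 and 124 in F15 diploids. All 20 male head libraries, at 99.2 to 172 CPM, lay below all 20 male abdomen libraries, at 273 to 549 CPM.

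Female heads held Dsx at 284, 367, 248, 278 and 254 CPM in F2 diploids and at 256, 191, 245, 221 and 259.7 CPM in F14 diploids. The F2 triploid heads separated into D31 and D32, at 153 and 149.7 CPM, and D33, D34 and D35, at 279, 303 and 312 CPM. The F14 triploid heads stood at 86.4, 185, 170.2, 165 and 185 CPM, of which 86.4 CPM belonged to D81, which had the lowest head marker sum (2039 CPM) and the highest muscle gene sum (7977 CPM) of the head libraries used. The low sum did not extend to Syt1. It was at least 964 CPM in every F14 triploid head, above the other head group means (at most 891 CPM). Female abdomens differed most among themselves. The F2 triploid abdomens held 8.96, 10.95, 11.5, 9.43 and 13.99 CPM, the F14 diploid abdomens 177, 188, 146, 188 and 169 CPM, and the F14 triploid abdomens 619.8, 664, 285 and 189.5 CPM. The 3 female abdomen groups did not overlap. Ordered by mean CPM over the 15 groups, most neighbours differed by less than the larger of their SDs. The exceptions were F14 diploid female heads (234 ± 28.5) over F14 diploid female abdomens (174 ± 17.2), F15 haploid male heads (158 ± 9.71) over F15 diploid male heads (140.1 ± 14.1), and F3 diploid male heads (118.4 ± 7.47) over F2 triploid female abdomens (10.97 ± 1.99). Only the first and last of these 3 pairs did not overlap. On the TPM scale, which divides by transcript length and can set genes side by side, the mean of Dsx stood above that of 87.5% of genes in heads and 90.7% in abdomens.

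**Figure D1:**
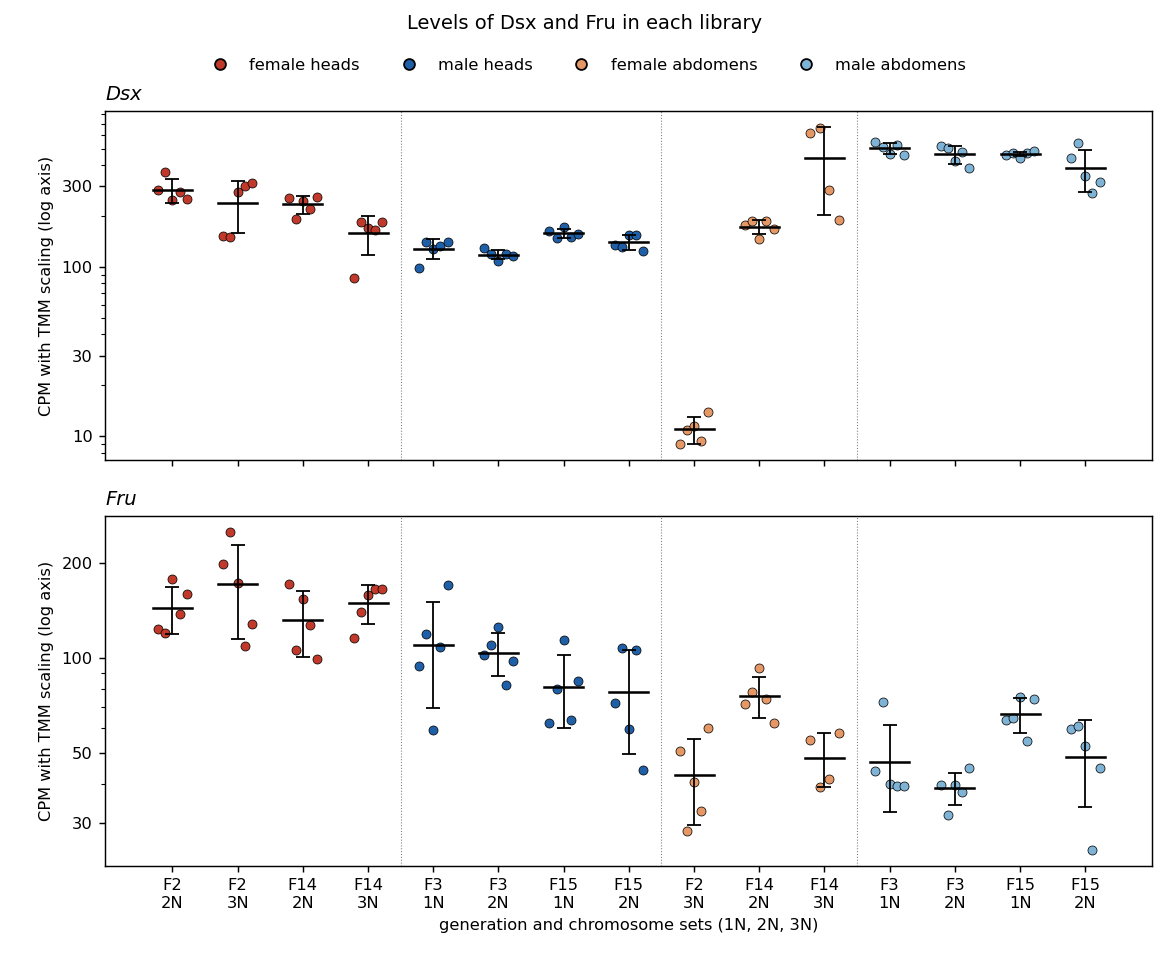
CPM (log axis) of Dsx (top) and Fru (bottom) in each library of the 15 groups, by generation and chromosome sets. Points are libraries, and bars are the mean and SD of a group. Dsx lay lowest in F2 triploid female abdomens (8.96 to 13.99 CPM) and between 273 and 549 CPM in male abdomens, and Fru was mostly higher in heads than in abdomens.

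Dsx was higher in female than in male heads. Early diploid females exceeded early diploid males by 1.29 ± 0.18 (log2 fold change ± SE, adjusted p = 1.99e-06), a 2.45-fold difference, and early haploid males by 1.18 ± 0.18 (adjusted p = 8.58e-06). Late diploid females exceeded late diploid males by 0.76 ± 0.18 (adjusted p = 0.00362) and late haploid males by 0.60 ± 0.18 (adjusted p = 0.0259). In these 4 comparisons no female library overlapped a male one. With an added set in both sexes, triploid females stood above diploid males by 1.01 ± 0.18 early (adjusted p = 9.01e-05), again without overlap, and differed by 0.15 ± 0.18 late (adjusted p = 0.553, 95% interval −0.21 to 0.50), where the libraries overlapped. Among all 11579 genes tested in these contrasts, 37.1% and 24.5% were called for early diploid females against diploid and haploid males, 9.08% and 9.73% for the late ones, and 23.5% and 33.3% for triploid females against diploid males, early and late. The contrasts share libraries and are not independent of each other. The call for late diploid females against haploid males was lost (adjusted p up to 0.0843) in 8 of 10 fits that each left out 1 library (D91, D93, D94, D95, D101, D102, D104 or D105), with the log2 difference between 0.53 and 0.63. On TPM the late differences were larger, at 1.26 (adjusted p = 0.000724) against diploid and 1.13 (adjusted p = 0.0025) against haploid males. The muscle genes Tm1, Tm2 and Zasp66 summed to 2046 to 6700.2 CPM in early diploid female heads, 621 to 1064 in early haploid and 540.2 to 1293 in early diploid male heads, and their part in the early differences was not tested. Tm2 alone did not follow the sum, with means of 61.9, 63.3 and 72.2 CPM in the same order.

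In abdomens Dsx was lower in females in 3 of 4 comparisons. The female minus male difference of late diploid female abdomens was −1.02 ± 0.21 against late diploid males (adjusted p = 6.98e-05) and, against late haploid males, −1.29 ± 0.21 (adjusted p = 2.37e-06), with no overlap of libraries. Early triploid female abdomens lay 42.6-fold below early diploid males (−5.41 ± 0.25, adjusted p = 4.22e-18), with a log2 difference on TPM of −4.15 (adjusted p = 6.61e-20). Muscle genes summed to 569.7 to 618 CPM in those females and 1478 to 2841 CPM in those males, to 1029 to 1254 CPM in late diploid females, and to 1389.6 to 2113 CPM in F15 males. Tm2 alone went against these sums. It stood at 97.7 to 112.3 CPM in those females and 58.4 to 69.5 CPM in those males. In late diploid females it was 78.6 to 104.9 CPM, and in F15 males 51.8 to 72.1 CPM. Germ line genes, high in female abdomens as given above, reached at most 16.2 CPM in male abdomens, and the part of either in these differences was not tested. Late triploid female abdomens, at 189.5 to 664 CPM, overlapped late diploid males, at 273 to 539 CPM (0.25 ± 0.22, adjusted p = 0.309, 95% interval −0.20 to 0.71). The share of all 11989 genes called in these contrasts was 80.6%, 78.6%, 87.9% and 69.6%, in the order given, so most genes were called there with Dsx. The median log2 difference of all genes was −0.47 in the early contrast. With RLE scaling the median over genes shifted by −0.44 in late diploid females against diploid males, and Dsx differed from that median by −1.005, as it did with TMM. Over the 35 contrasts TPM moved the median by −0.46 to 0.63 and RLE by −0.46 to 0.37. On TPM the difference was −0.46 (adjusted p = 0.0169) for late diploids and −0.79 (adjusted p = 0.000135) against late haploid males, and late triploid females exceeded diploid males by 0.99 (adjusted p = 1.7e-05).

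The sex difference of Dsx thus had opposite signs in heads and abdomens of late diploids. Tested as a contrast of both differences in 1 fit over the 15 groups, the female minus male difference was 1.89 ± 0.28 higher in heads than in abdomens (adjusted p = 3.69e-08), and 64.6% of 12683 genes were called in it. The same contrast gave 0.12 ± 0.32 for Fru (adjusted p = 0.777). The median over all genes was 0.15 with TMM and 0.53 with RLE, and Dsx stood 1.73 and 1.74 above it.

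Between tissues, Dsx was lower in heads than in abdomens in all 4 kinds of male. The log2 difference was −2.02 ± 0.13 in F3 haploids, −1.98 ± 0.13 in F3 diploids, −1.61 ± 0.13 in F15 haploids and −1.47 ± 0.13 in F15 diploids (adjusted p from 1.27e-15 to 2.84e-12), a 2.77 to 4.05-fold difference. Of the 11981 genes tested in males, 66.8%, 66.2%, 62.6% and 67.3% were called in these contrasts. On TPM the differences were −1.40 (adjusted p = 6.07e-09) and −1.59 (adjusted p = 3.82e-10) at F3 and −0.83 (adjusted p = 6.62e-05) and −0.63 (adjusted p = 0.00139) at F15, where the F15 medians of all genes stood at 0.52 and 0.56. Females had no single direction. F14 triploid heads lay below F14 triploid abdomens, with a log2 difference of −1.44 ± 0.27 (adjusted p = 2.55e-05), F2 triploid heads lay 21.8-fold above F2 triploid abdomens (4.45 ± 0.30, adjusted p = 1.24e-14), and F14 diploid heads and abdomens differed by 0.48 ± 0.26 (adjusted p = 0.0878, 95% interval −0.039 to 1.004), without overlap. Among 11942 genes, 66.9%, 84.5% and 74.9% were called, in the order given. The F14 diploid difference was called with RLE scaling (0.79, adjusted p = 0.00669), in DESeq2 (adjusted p = 0.00388), on TPM at 1.08 (adjusted p = 0.000584), and in a fit of its own groups alone (0.46, adjusted p = 0.0015). The median of all genes was −0.016 with TMM and 0.29 with RLE, and Dsx stood 0.50 and 0.50 above it, so the larger RLE value was shared with all genes.

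**Figure D2:**
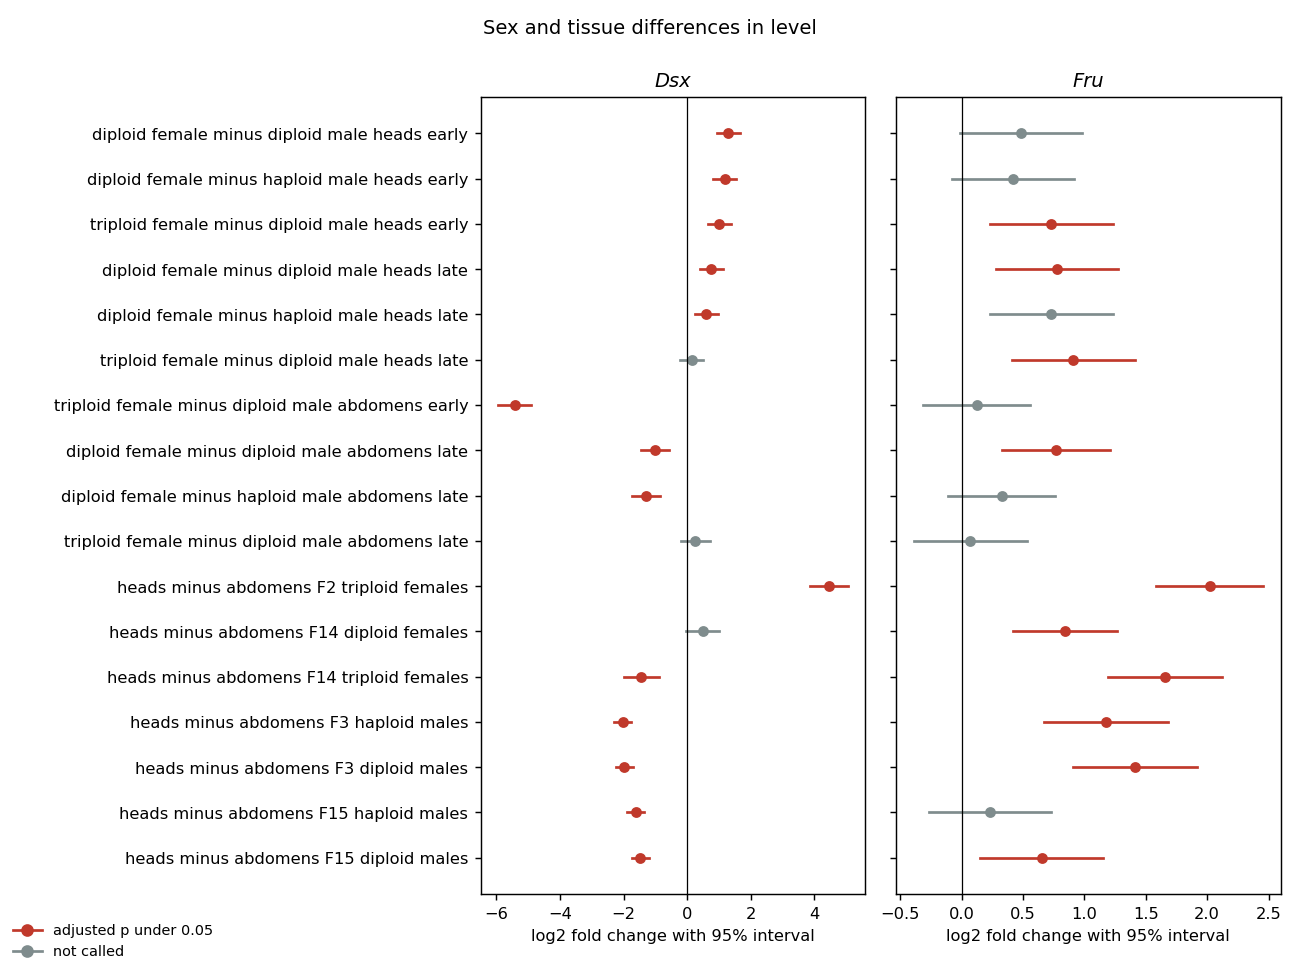
Log2 fold changes (points) with 95% intervals (lines) for the 10 sex and 7 tissue contrasts, Dsx on the left and Fru on the right, each with its own axis. Red marks an adjusted p under 0.05. Dsx lay to the right of 0 in 6 head contrasts between the sexes, 5 of them called, and to the left in 3 of 4 abdomen contrasts, and Fru was called in heads over abdomens in 6 of 7 groups.

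The F2 triploid female abdomens carried the lowest Dsx of the series, 10.97 ± 1.99 CPM (SD, n = 5), against 439.6 ± 238 CPM (n = 4) in the F14 triploid abdomens. The difference of 5.40 ± 0.33 on the log2 scale (adjusted p = 1.49e-08) came in a contrast in which 75.1% of 10739 genes were called, and 9.79% of them differed by more than Dsx. On TPM the difference was 4.66 (adjusted p = 9.99e-10). In the same libraries the head markers summed to 3.08 to 10.6 CPM against 31.3 to 108.5, the germ line genes to 855 to 965 against 260.3 to 655, and the muscle genes to 569.7 to 618 against 1504 to 3638 CPM. The F2 triploid abdomens thus had the lowest muscle and head marker sums and the highest germ line sum of the abdomens used. Single genes did not all follow the sums. Tm1 and Zasp66 had their lowest abdomen group means there, but Tm2 had its highest, 105.2 CPM against 94.23 CPM in F14 diploid female abdomens. Mean oskar was highest there, but mean nanos was 70.66 CPM against 80.98 CPM in F14 diploid female abdomens. The part of tissue makeup in the Dsx difference was not tested. Fru stood at 51.0, 28.4, 40.6, 32.9 and 60.1 CPM early and 55.0, 39.2, 41.5 and 57.8 CPM late (0.27 ± 0.21, adjusted p = 0.244, 95% interval −0.17 to 0.72).

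Between ploidies, the level of Dsx changed in 1 of 7 comparisons. F14 triploid female abdomens stood 2.97-fold above the diploid ones (1.57 ± 0.29, adjusted p = 0.000956), with no overlap, in a contrast with 37.8% of 10739 genes called. The 4 triploid libraries were uneven: D86 and D87 held Dsx at 619.8 and 664 CPM and the muscle genes at 3638 and 2942 CPM, while D89 and D90A held Dsx at 285 and 189.5 CPM and the muscle genes at 1504 and 1838 CPM. The diploid abdomens held the muscle genes at 1029 to 1254 CPM in sum, below all 4. Tm2 alone went the other way, at 78.6 to 104.9 CPM in diploids and 56.4 to 75.7 CPM in triploids. The diploids were sequenced to 46.0 to 94.98 M total counts, and the triploids to 16.9 to 17.5 M. The part of muscle and of depth in the difference was not tested. Leaving out any 1 library kept the call (adjusted p up to 0.00459). In female heads the difference was −0.30 ± 0.22 at F2 (adjusted p = 0.286, 95% interval −0.76 to 0.16) and −0.58 ± 0.22 at F14 (adjusted p = 0.0538, 95% interval −1.04 to −0.12). The F14 head libraries did not overlap, and DESeq2 (adjusted p = 0.0383), TPM at −0.86 (adjusted p = 0.0258) and the fit without D85 (adjusted p = 0.0487) called this difference. In this contrast TPM moved the median of all genes by −0.46, so the TPM value includes a shift shared with all genes. The F2 difference was 0.05 without D31 and D32, an alternative chosen after the values were seen. In these F2 heads the muscle genes summed to 2046 to 6700.2 CPM in diploids and 442 to 680.4 CPM in triploids, and in the F14 heads to 845 to 1174 CPM in diploids and 1053 to 7977 CPM in triploids, and the part of muscle was not tested. Mean Tm2 did not follow these sums, at 61.9 and 65.5 CPM in F2 diploids and triploids and 74.7 and 65.3 CPM in F14 ones. Over all 11127 genes, 42.4% were called at F2 and 29.7% at F14.

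In males, diploids and haploids differed in Dsx by −0.10 ± 0.11 in F3 heads, −0.19 ± 0.11 in F15 heads, −0.13 ± 0.15 in F3 abdomens and −0.30 ± 0.15 in F15 abdomens, with adjusted p of 0.507, 0.661, 0.611 and 0.194. The 95% intervals were −0.32 to 0.12, −0.41 to 0.035, −0.45 to 0.19 and −0.62 to 0.024. The share of genes called was 16.2% and 0.109% of 11010 in heads and 16.6% and 11.1% of 11358 in abdomens. For Fru, none of the 7 ploidy contrasts was called. Its difference was 0.22 ± 0.21 and 0.16 ± 0.21 in F2 and F14 female heads, −0.41 ± 0.21 in F14 female abdomens, −0.073 ± 0.26 and −0.065 ± 0.26 in F3 and F15 male heads, and −0.29 ± 0.21 and −0.47 ± 0.21 in F3 and F15 male abdomens, with adjusted p from 0.133 to 0.996. At an unadjusted p under 0.05, edgeR and DESeq2 each passed 1 of the 7, F15 male abdomens, and DESeq2 called none at an adjusted p under 0.05. In F14 female abdomens the Fru libraries did not overlap, at 71.8, 78.5, 93.2, 74.6 and 62.2 CPM in diploids and 55.0, 39.2, 41.5 and 57.8 CPM in triploids. TPM called Fru higher in F2 triploid heads, at 0.77 (adjusted p = 0.037), and lower in F15 diploid male abdomens, at −0.48 (adjusted p = 0.0473). Within the F2 triploid heads, D31 and D32 held the most Fru (199 and 251 CPM) and the least Dsx, and without them Fru differed by −0.08 between triploids and diploids.

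Across generations, the level of Dsx rose in 2 of 7 comparisons. The first was the one between F14 and F2 triploid abdomens given above. The second was small: F15 haploid male heads exceeded F3 haploid male heads by 0.33 ± 0.11 (adjusted p = 0.0434), with 14.4% of 11010 genes called, and the libraries did not overlap. That call was lost with RLE scaling, without the filter on low counts, on TPM, and in 8 of 10 fits that left out 1 library (D1, D3, D4, D101, D102, D103, D104 or D105, adjusted p up to 0.108). F15 diploid male heads differed from F3 ones by 0.25 ± 0.11 (adjusted p = 0.11; 18.3% of genes called). In female heads the F14 minus F2 difference was −0.28 ± 0.22 in diploids (adjusted p = 0.408; 19.4% of 11127 genes called) and −0.56 ± 0.22 in triploids (adjusted p = 0.0921; 15.6% called). The triploid difference was called without D31 (adjusted p = 0.0417), without D32 (adjusted p = 0.0444) and without both (−0.86, adjusted p = 0.00532). In male abdomens the F15 minus F3 difference was −0.071 ± 0.15 in haploids (29% of 11358 genes called) and −0.24 ± 0.15 in diploids (35.4% called), with adjusted p of 0.76 and 0.237. The diploid difference passed the threshold on TPM, at −0.49 (adjusted p = 0.0125), and without D117.

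Fru passed the threshold in none of the 7 generation contrasts. Its differences were −0.12 ± 0.21 and −0.18 ± 0.21 in diploid and triploid female heads, −0.41 ± 0.26 and −0.41 ± 0.26 in haploid and diploid male heads, and 0.54 ± 0.21 and 0.36 ± 0.21 in haploid and diploid male abdomens, with adjusted p from 0.0644 to 0.75. At an unadjusted p under 0.05, edgeR and DESeq2 each passed 1 of the 7, haploid male abdomens, and DESeq2 called none at an adjusted p under 0.05. The haploid male abdomens came nearest: 43.8, 72.7, 40.04, 39.4 and 39.5 CPM at F3 and 64.0, 64.7, 75.2, 54.5 and 74.5 CPM at F15 overlapped through D6 alone, at 72.7 CPM, and without D6 the difference was called (edgeR adjusted p = 0.00788). D6 had the highest head marker sum of its group, 242 CPM against 138 to 193. Its muscle gene sum was the lowest, 1771 CPM against 2368 to 2858, and the part of tissue makeup was not tested. The diploid male abdomens stood at 39.8, 31.996, 39.7, 37.8 and 44.8 CPM at F3 and 59.9, 61.0, 52.8, 24.7 and 45.1 CPM at F15, where D119, at 24.7 CPM, lay below all the others. D119 also had the highest head marker sum of its group, 412 CPM against 68.7 to 141 in the other 4, and without it the difference was called (adjusted p = 0.025). Whether the ploidy difference itself changed between early and late generations was tested in female heads, male heads and male abdomens. For Dsx the change was −0.28 ± 0.31, −0.083 ± 0.15 and −0.17 ± 0.22, and for Fru −0.063 ± 0.30, 0.0080 ± 0.37 and −0.17 ± 0.30, none of them called (adjusted p from 0.553 to 0.753 for Dsx and 0.745 to 0.992 for Fru) and none at an unadjusted p under 0.05. Over all genes 24.3%, 3.57% and 10.4% were called.

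**Figure D3:**
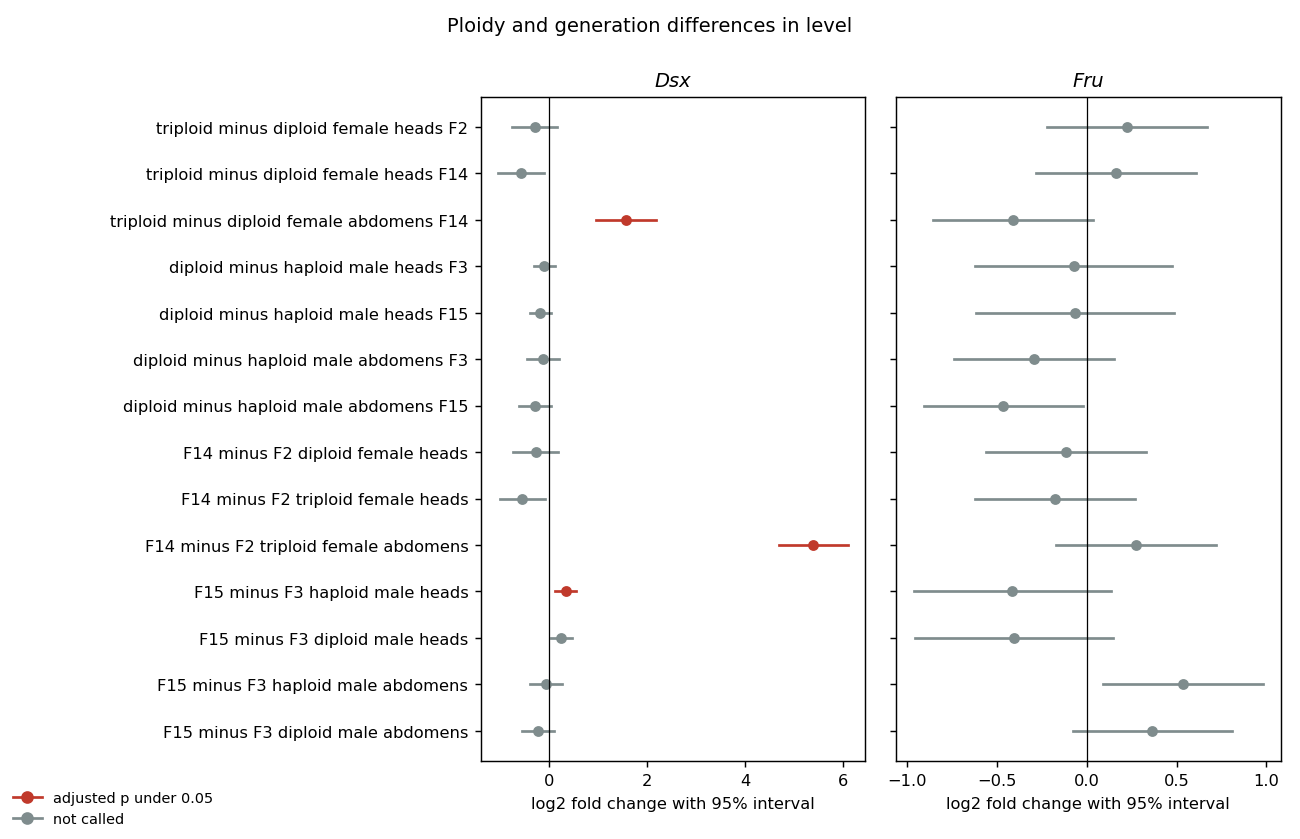
Log2 fold changes (points) with 95% intervals (lines) for the 7 ploidy and 7 generation contrasts, Dsx on the left and Fru on the right, each with its own axis. Red marks an adjusted p under 0.05. For Dsx 1 ploidy and 2 generation contrasts were called, and for Fru none.

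Fru was higher in heads than in abdomens. The female heads held 124, 120.3, 178, 138 and 159 CPM in F2 diploids, 199, 251, 173, 109.2 and 128 in F2 triploids, 172, 106.2, 154, 128 and 99.3 in F14 diploids and 115.98, 141, 158, 165 and 166 in F14 triploids. Male heads held 94.5, 119.4, 59.2, 108.4 and 171 CPM in F3 haploids, 102.6, 110.4, 126, 82.02 and 98.1 in F3 diploids, 62.3, 80.2, 114.3, 63.6 and 84.8 in F15 haploids and 72.1, 107.6, 59.7, 106.2 and 44.1 in F15 diploids. The 4 female head groups had the 4 highest means, from 132 ± 31.04 to 172 ± 56.7 CPM (SD, n = 5), and the lowest mean was that of F3 diploid male abdomens, 38.8 ± 4.61. Along this order neighbours differed by less than the larger of their SDs, except F3 diploid over F15 haploid male heads (103.8 ± 16.2 and 81.1 ± 21.1) and F15 haploid over F15 diploid male abdomens (66.6 ± 8.56 and 48.7 ± 14.9), and all neighbouring groups overlapped. Per length, Fru had a mean TPM above that of 90.1% of genes in heads and 71.6% in abdomens.

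Heads exceeded abdomens in Fru by 2.02 ± 0.21 in F2 triploid females, 1.66 ± 0.23 in F14 triploid females and 0.84 ± 0.21 in F14 diploid females (adjusted p from 4.67e-10 to 0.000561), without overlap. In males the difference was 1.18 ± 0.25 and 1.41 ± 0.25 in F3 haploids and diploids (adjusted p = 8.97e-05 and 7.36e-06) and 0.65 ± 0.25 in F15 diploids (adjusted p = 0.0195), while F15 haploids differed by 0.23 ± 0.25 (adjusted p = 0.42, 95% interval −0.26 to 0.73). So 6 of 7 were called, where 62.6 to 84.5% of all genes were called in the same contrasts. The F15 diploid call was lost without D112, D114 or D119 (adjusted p up to 0.077). On TPM the F15 haploid difference was called at 1.02 (adjusted p = 5.67e-05), and the F15 diploid one stood at 1.53 (adjusted p = 5.02e-08). TPM moved the median of all genes by 0.55 and 0.63 in the F15 haploid and diploid contrasts, so part of both values was shared with all genes.

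Between the sexes, Fru was called higher in females in 4 of 10 contrasts and lower in none. Of all genes tested, 9.08 to 37.1% were called in the head contrasts and 69.6 to 87.9% in the abdomen contrasts. In late heads, diploid females exceeded diploid males by 0.78 ± 0.25 (adjusted p = 0.0394) and differed from haploid males by 0.73 ± 0.25 (adjusted p = 0.0526), and triploid females exceeded diploid males by 0.91 ± 0.25 (adjusted p = 0.00427) without overlap. In early heads the difference was 0.73 ± 0.25 between triploid females and diploid males (adjusted p = 0.0283), 0.49 ± 0.25 between diploids (adjusted p = 0.115) and 0.42 ± 0.25 between diploid females and haploid males (adjusted p = 0.226). The early triploid call was lost in a fit of its own groups alone (0.72, adjusted p = 0.114), without D31 and D32 together (0.41, adjusted p = 0.252) and without any 1 of D11, D14, D15, D31 and D32. The late diploid call was lost without any 1 of 6 libraries (D91, D93, D94, D111, D113 or D115, adjusted p up to 0.14). In late abdomens, diploid females stood above diploid males by 0.77 ± 0.21 (adjusted p = 0.00176) without overlap, but with RLE scaling the difference was 0.33 (adjusted p = 0.161). Set against the median of all genes under each scaling it was 0.79 and 0.78. The other 3 abdomen contrasts gave 0.33 ± 0.21, 0.12 ± 0.21 and 0.071 ± 0.23, with adjusted p from 0.159 to 0.79, and all 3 turned negative with RLE scaling. Set against the median of all genes they were 0.24, 0.59 and 0.072 with TMM and 0.23, 0.59 and 0.072 with RLE.

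RSEM, the program that estimated the deposited values, divides a gene's count by the mean effective length of its transcripts, weighted by their estimated abundance, to give TPM. The ratio of the deposited count to the deposited TPM, divided by the median ratio of the library, therefore gives the relative effective length of the transcripts to which reads of a gene were assigned. A library constant cancels in it, and it does not depend on the level of the gene. Both genes varied in it more than most: the SD of log2 relative length over the 74 libraries was 0.35 for Dsx and 0.22 for Fru, larger than that of 99.6% and 98.7% of 6239 genes, against 0.01 for Tra. These genes include 2651 with 1 listed transcript (median SD 0.011) and 3588 with 2 or more (median SD 0.023). Genes with as many transcripts as Dsx or Fru were not compared apart.

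The relative length of Dsx separated the sexes in every library, at 1.01 to 1.78 in the 34 female and 2.12 to 2.31 in the 40 male libraries. The 8 male groups had means between 2.17 and 2.29. Diploid females stood at 1.56, 1.59, 1.60, 1.62 and 1.56 in F2 heads, 1.78, 1.63, 1.60, 1.61 and 1.58 in F14 heads and 1.61, 1.69, 1.67, 1.67 and 1.63 in F14 abdomens. All 15 lay below every male library. In heads, the log2 difference between diploid females and males was −0.46 ± 0.03 early and −0.43 ± 0.03 late against diploid males, and −0.47 ± 0.03 early and −0.41 ± 0.03 late against haploid males. In late abdomens it was −0.43 ± 0.04 against diploid and −0.47 ± 0.04 against haploid males (limma adjusted p from 5.3e-12 to 8.22e-10 over all 6). A call alone says little where many small shifts were called: of the genes tested, 58.9%, 0.268%, 6.65%, 0.383%, 46.7% and 51.9% were called, in the order given. By size, 0.0255 to 0.578% of the genes tested differed by more than Dsx in these 6 contrasts. Fru did not pass the threshold in any of the 6, with differences between −0.18 and 0.15 (adjusted p from 0.199 to 0.954), nor at an unadjusted p under 0.05.

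In triploid females Dsx reads were assigned to still shorter transcripts. Their relative length was 1.32, 1.301, 1.18, 1.29 and 1.35 in F2 heads, 1.57, 1.32, 1.32, 1.37 and 1.35 in F14 heads and 1.48, 1.37, 1.31 and 1.29 in F14 abdomens. Against diploid females of the same tissue and generation they differed by −0.30 ± 0.04, −0.25 ± 0.04 and −0.28 ± 0.05 (adjusted p = 3.12e-05, 0.000943 and 0.000538), without overlap in any of the 3 contrasts. Of all genes tested 75.2%, 54.5% and 68.9% were called there, and 1.51%, 0.840% and 1.75% differed by more than Dsx. These contrasts were added after the values by group had been seen. The F2 triploid abdomens, with the lowest level of Dsx, also had the shortest relative length, 1.01, 1.14, 1.04, 1.03 and 1.21, and no diploid group of the same tissue and generation was used beside them. In males, an added set left Dsx at differences of −0.0072 ± 0.01, 0.020 ± 0.01, −0.012 ± 0.02 and −0.042 ± 0.02 in F3 heads, F15 heads, F3 abdomens and F15 abdomens, none called (adjusted p from 0.327 to 0.9997), where 0.292%, 0%, 0.197% and 0.0116% of all genes were called. At an unadjusted p under 0.05 limma passed 1 of the 4, F15 abdomens. Whether the ploidy difference in females itself differs from that in males was not tested.

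**Figure D4:**
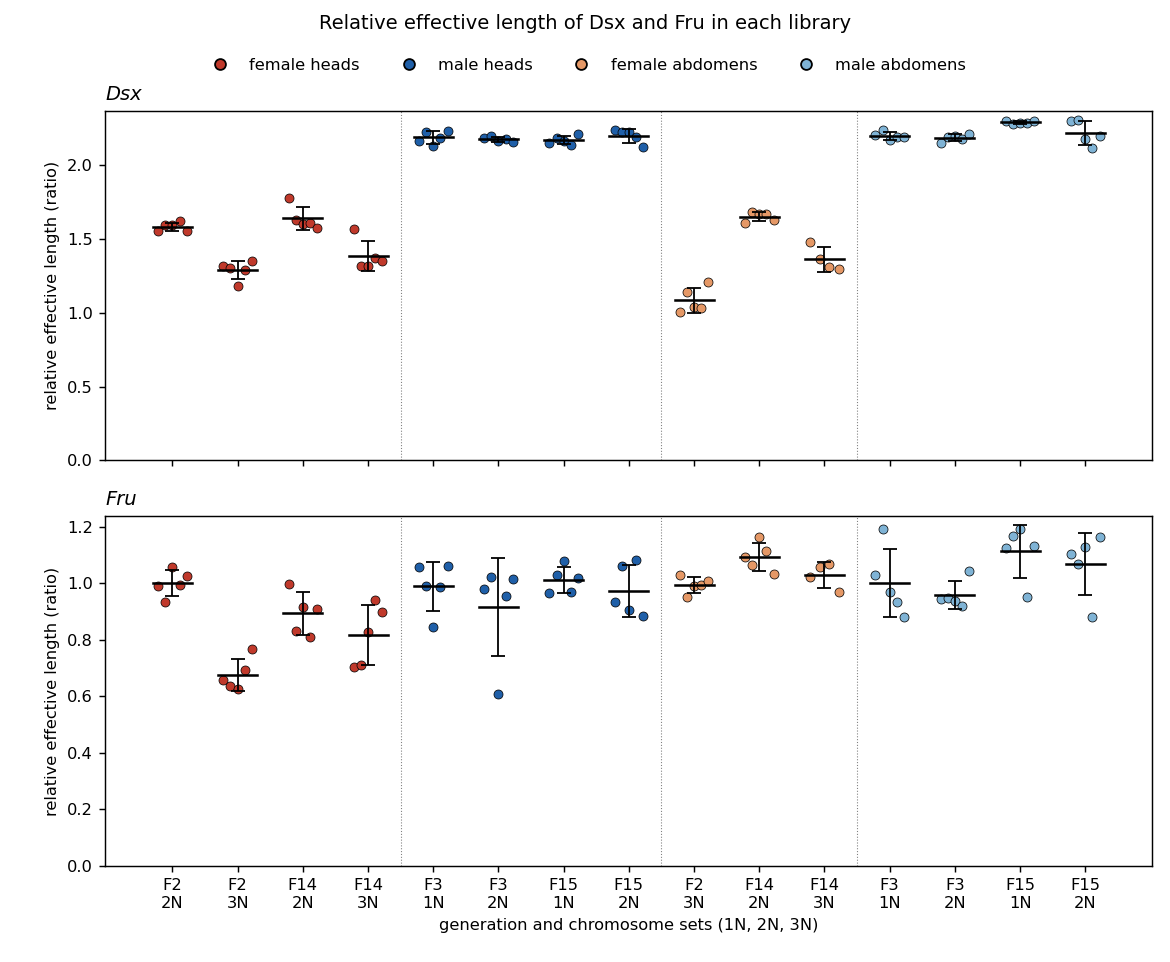
Relative effective length (ratio of count to TPM, scaled to the library median) of Dsx (top) and Fru (bottom) in each library of the 15 groups. Points are libraries, and bars are the mean and SD of a group. For Dsx every male library lay between 2.12 and 2.31, every diploid female library between 1.56 and 1.78, and every triploid female library between 1.01 and 1.57.

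In F2 diploid female heads (0.932 to 1.06) the relative length of Fru overlapped that of female abdomens (0.951 to 1.16). Within the 3 female pairs compared it was lower in heads. It was 0.997, 0.830, 0.916, 0.810 and 0.910 in F14 diploid heads and 1.09, 1.06, 1.16, 1.11 and 1.03 in F14 diploid abdomens, and 0.705, 0.709, 0.829, 0.939 and 0.898 and 1.02, 1.06, 1.07 and 0.968 in F14 triploid heads and abdomens. In F2 triploids it was 0.658, 0.637, 0.625, 0.694 and 0.766 in heads and 1.03, 0.951, 0.990, 0.992 and 1.01 in abdomens. Heads lay below abdomens, with log2 differences of −0.29 ± 0.07, −0.35 ± 0.07 and −0.56 ± 0.07 in these 3 pairs (adjusted p = 0.000437, 0.00123 and 1.6e-07), without overlap. The share of genes called was 59.4%, 7.54% and 18.4%, and 1.57%, 0.661% and 0.661% differed by more than Fru. In males the head minus abdomen difference was −0.014 ± 0.10, −0.089 ± 0.10, −0.13 ± 0.10 and −0.14 ± 0.10 in F3 haploids, F3 diploids, F15 haploids and F15 diploids, none called (adjusted p from 0.299 to 0.921), with 10.5%, 6.02%, 8.48% and 38.1% of all genes called. F2 triploid heads also lay below F2 diploid heads, at 0.990, 0.932, 1.06, 0.993 and 1.03, with a log2 difference of −0.57 ± 0.08 (adjusted p = 2.69e-05), a difference exceeded by 0.222% of genes, while F14 heads differed by −0.14 ± 0.08 (adjusted p = 0.157). Fru was called in its level between F2 triploid and diploid heads on TPM and not on counts, and TPM divides by this length. For Dsx, 5 of 7 tissue contrasts in length were not called. F2 triploid heads stood 0.25 ± 0.05 above abdomens (adjusted p = 0.000206) and F15 haploid male heads differed from abdomens by −0.077 ± 0.02 (adjusted p = 0.00102).

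The relative length is an estimate: it rests on how RSEM divided reads among the 8 or 16 listed transcripts, and reads over exon junctions that would show male and female forms were not used here. RNA breakdown or reads gathered at 1 end of transcripts could move it too, and their part was not tested. Tra, read the same way, stayed between 0.697 and 0.719 in all 74 libraries. Within that range it was still called longer in triploid than in diploid females, without overlap. The log2 differences were 0.025 in F2 heads, 0.019 in F14 heads and 0.020 in F14 abdomens (limma adjusted p = 3.92e-05, 0.00222 and 2.74e-05). It was also called shorter in early diploid female than diploid male heads (−0.018, limma adjusted p = 0.00133).

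**Figure D5:**
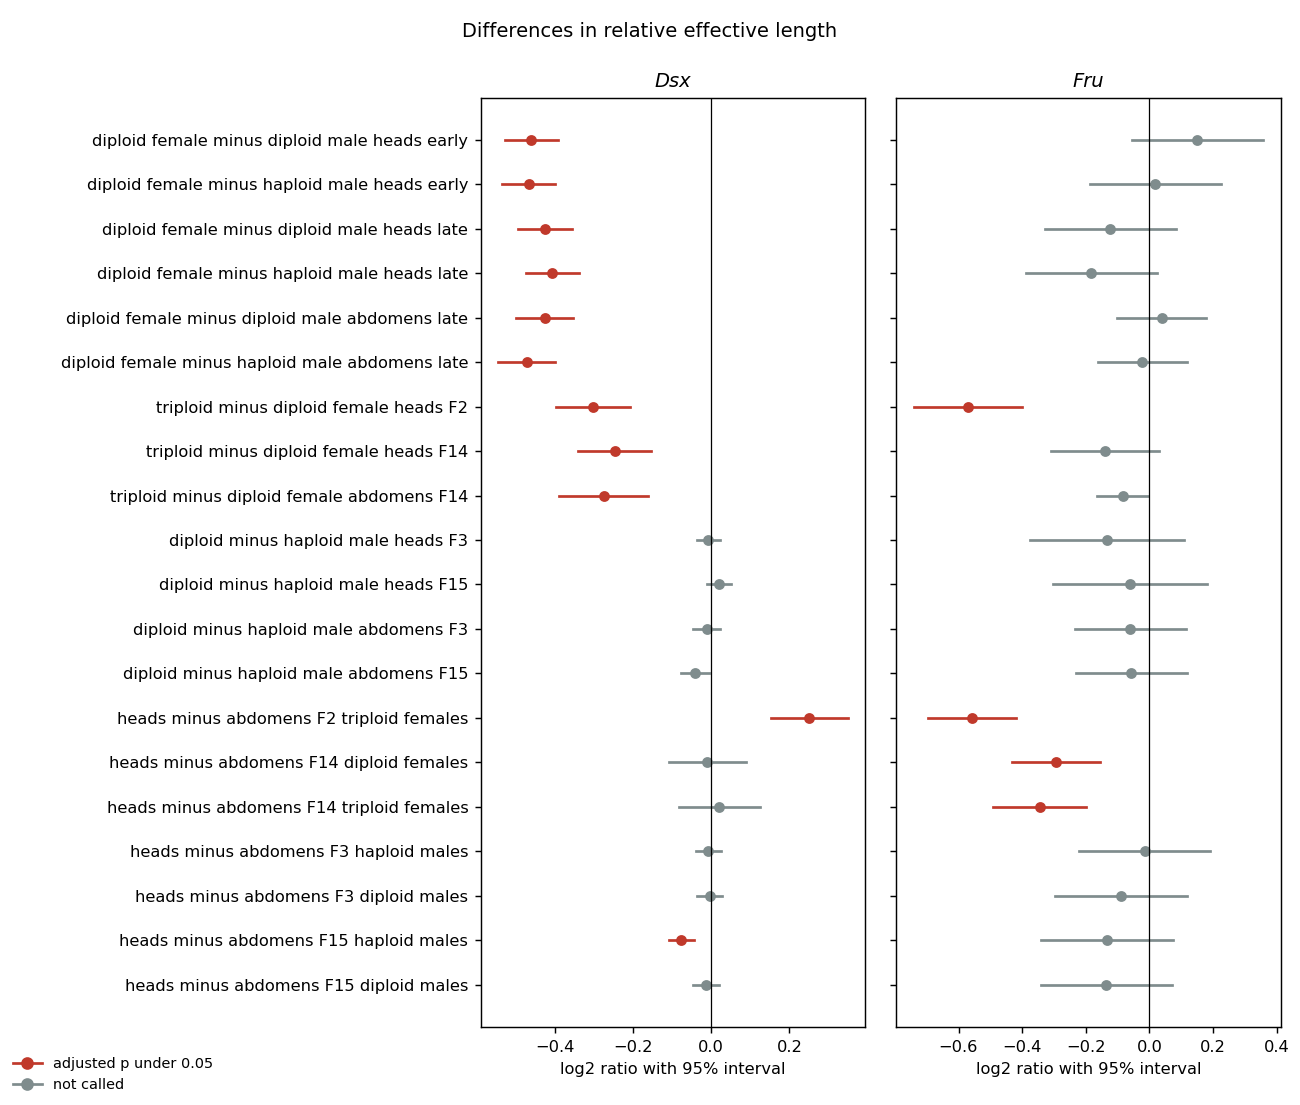
Log2 differences in relative effective length (points) with 95% intervals (lines) for 6 sex, 7 ploidy and 7 tissue contrasts, Dsx on the left and Fru on the right, each with its own axis. Red marks an adjusted p under 0.05. All 6 sex contrasts and the 3 ploidy contrasts in females were called for Dsx, and 1 ploidy and 3 tissue contrasts in females for Fru.

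Of the genes listed beside Dsx and Fru, 1 of 7 sex determination symbols was matched, Tra, and none of 8 partner or 9 target symbols. Tra was at 173 to 1474 CPM in female heads and 45.0 to 101.99 CPM in male heads, with no overlap. Of all genes tested, 9.08 to 37.1% were called in the sex contrasts of heads and 69.6 to 87.9% in those of abdomens. Tra was called higher in females in 9 of 10 sex contrasts, with log2 differences of 1.86 ± 0.29 and 2.39 ± 0.29 between early and late diploid heads (adjusted p = 9.04e-06 and 1.98e-07). The exception was early triploid female against diploid male abdomens, at 28.03, 42.2, 37.5, 34.99 and 34.96 and 29.04, 38.7, 40.2, 38.6 and 32.3 CPM (−0.024 ± 0.14, adjusted p = 0.868). The F2 triploid abdomens, lowest in Dsx and shortest in its relative length, thus overlapped the male abdomens in Tra. Tra was called higher in heads than in abdomens in 7 of 7 tissue contrasts, where 62.6 to 84.5% of all genes were called. Between ploidies it was called higher with the added set in 2 of 7 contrasts, F2 female heads (1.98 ± 0.35, adjusted p = 0.000153, and 1.16 without D31 and D32) and F14 female abdomens (0.45 ± 0.15, adjusted p = 0.0253), the second only with D96, D97, D86 and D87 all kept. It was called lower in diploid than in haploid F3 male heads (−0.67 ± 0.18, adjusted p = 0.0167) and F3 male abdomens (−0.70 ± 0.14, adjusted p = 0.00263). The share of all genes called was 42.4% and 37.8% in the female ploidy contrasts named, and 16.2% and 16.6% in the F3 male ones. In the F2 triploid heads, D31 and D32 held Tra at 1353 and 1474 CPM and the other 3 at 383 to 537 CPM. These 2 libraries were the lowest of the group in Dsx and the highest in Fru. They also had the lowest head marker sums, at 4218 and 3600.1 CPM against 8872 to 20876 CPM. Most of this sum was Lop1, at 1966 to 20005 CPM in the group, against 372 to 1253 CPM for Syt1. The other head markers need not follow the sum, and the part of tissue makeup was not tested.

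Over the 15 group means of log2 CPM, the genes whose pattern was most like that of Dsx, among 10599 compared, were LOC100120891 (Pearson r = 0.97), Mrjpl7 (0.95), a gene of the royal jelly-like family, and LOC103317425 (0.95). For Fru they were LOC100123806 (0.93), LOC100120420 (0.92) and LOC100122298 (0.92). The 3 genes named for Dsx had their lowest and highest group means at 2.95 and 613 CPM, 0.46 and 70.8 CPM, and 0.551 and 30.9 CPM. Over the 8 head groups alone, among 9124 genes, they were LOC100122040 (0.96), LOC100119603 (0.95) and LOC100122637 (0.93) for Dsx, and LOC100118917 (0.98), LOC100121630 (0.96) and LOC100120870 (0.95) for Fru. By Spearman correlation over the 15 groups, LOC100120891 remained among the top 3 for Dsx (0.95) and LOC100122298 for Fru (0.94). Dsx and Fru themselves had r = −0.0066 over the 15 groups and 0.62 over the 8 head groups. These are descriptions over groups that share tissue and sex, and say nothing of shared function.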

How the data were processed

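Libraries were made with a NEBNext Ultra kit after selection on poly-T beads, per the labels' protocols, and STAR 2.7.11a and RSEM 1.3.1 are named in the submitters' processing notes. Neither the genome build nor the strand setting is given in the sources used here. Deposited by the authors were an expected count table (RSEM estimates) and a TPM table (transcripts scaled to a common total, with division by transcript length), and each column matched 1 sample by its name. Expected counts were rounded to whole numbers. All 14621 genes matched RefSeq symbols, and 14613 were in the TPM table.

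Counts were tested with edgeR 4.0.16 (quasi-likelihood F test, TMM, filterByExpr with a minimum count of 10 and total of 15) in R 4.3.3, in fits per sex and tissue, per tissue, per sex or over all 15 groups, with Benjamini-Hochberg adjustment over all genes of a fit. The 95% intervals use the t quantile at each fit's degrees of freedom. Relative length, log2 of count over TPM less the library median over genes with TPM of at least 1, was tested with limma 3.58.1. DESeq2 1.42.0 served as an alternative. Tables and figures used Python 3.11.15, pandas 2.3.3, numpy 2.4.6 and matplotlib 3.10.9. The procedures were tested on simulated data. Named genes were Dsx and Fru in every contrast, listed genes called in a sex or ploidy contrast, and the 3 genes most alike by Pearson correlation among those with at least 5 CPM in their highest group. The members and lists were chosen with earlier results of these data known. The 5 libraries labelled F2 diploid female abdomen were left out. Depth was 12.6 to 94.98 M counts per library. Standard errors do not show a depth difference between groups, as in F14 female abdomens.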

Additional observations from a re-analysis of the deposited data

Results flagged for a closer look

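Single libraries stood apart from the rest of their group in 7 of 60 groups of values examined, where chance alone gives about 1 in 20. The level of Dsx in F14 triploid female heads was 86.4 CPM in D81 against 165 to 185 CPM in the other 4. In the same library the relative length of Dsx was 1.57 against 1.32 to 1.37. The relative length of Dsx in F14 diploid female heads was 1.78 in D91 against 1.58 to 1.63. Fru stood at 72.7 CPM in D6, an F3 haploid male abdomen, against 39.4 to 43.8 CPM. Its relative length was 0.952 in D109, an F15 haploid male abdomen, against 1.12 to 1.19, and 1.04 in D20, an F3 diploid male abdomen, against 0.920 to 0.948. In D13, an F3 diploid male head, it was 0.607 against 0.954 to 1.02.

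The sex difference of Dsx in late diploids differed between heads and abdomens by 1.89 on the log2 scale (edgeR adjusted p = 3.69e-08).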

How the results depend on the processing

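Of 110 tested results for Dsx and Fru, 62 kept their call and direction under every alternative, and the relative length kept both for all 40 results with a TPM of at least 5 and with scaling by genes of similar length. The settings were RLE scaling, DESeq2, no filter on low counts, log2(TPM + 1) and log2(TPM + 0.1) in limma, a fit of the contrast's own groups alone, and leaving out each library. Leaving out D31 and D32 together was chosen after seeing the data. No paired analysis was possible because the labels give each library its own number and no number shared between groups. TPM differs from counts by the relative length, which is part of its construction, and by the lack of TMM scaling. Over the contrasts TPM moved the median of all genes by −0.46 to 0.63. The cause of the other changes was not tested. The lowest library held 213 counts of Dsx and 495 of Fru.

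Log2 differences that lost or gained a call or changed sign were as follows. For triploid minus diploid female heads F2, the values were Dsx 0.046 (D31 and D32 left out) and Fru 0.77 (TPM + 1), 0.78 (TPM + 0.1), −0.084 (D31 and D32 left out). Triploid minus diploid female heads F14 gave Dsx −0.58 (DESeq2), −0.86 (TPM + 1), −0.87 (TPM + 0.1), −0.65 to −0.43 (1 library left out) and Fru −0.18 (TPM + 1, TPM + 0.1). For F14 minus F2 diploid female heads, the values were Dsx 0.10 (TPM + 1, TPM + 0.1) and Fru 0.45 (TPM + 1, TPM + 0.1). F14 minus F2 triploid female heads gave Dsx −0.86 (D31 and D32 left out), −0.68 to −0.40 (1 library left out) and Fru 0.17 (D31 and D32 left out), −0.31 to 0.010 (1 library left out) and Tra 0.54 (D31 and D32 left out). For late minus early ploidy effect in female heads, the values were Fru 0.27 (D31 and D32 left out), −0.19 to 0.11 (1 library left out). Diploid minus haploid male heads F3 gave Fru −0.21 to 0.15 (1 library left out). For diploid minus haploid male heads F15, the values were Fru 0.026 (TPM + 1, TPM + 0.1), −0.21 to 0.091 (1 library left out). F15 minus F3 haploid male heads gave Dsx 0.31 (RLE), 0.33 (no filter), 0.35 (TPM + 1, TPM + 0.1), 0.25 to 0.37 (1 library left out). For late minus early ploidy effect in male heads, the values were Dsx 0.12 (TPM + 1), 0.13 (TPM + 0.1) and Fru −0.22 to 0.16 (1 library left out). Diploid minus haploid male abdomens F15 gave Dsx −0.46 to −0.20 (1 library left out) and Fru −0.48 (TPM + 1), −0.50 (TPM + 0.1). For F15 minus F3 haploid male abdomens, the values were Fru 0.47 to 0.76 (1 library left out). F15 minus F3 diploid male abdomens gave Dsx −0.49 (TPM + 1, TPM + 0.1), −0.40 to −0.14 (1 library left out) and Fru −0.048 (TPM + 1), −0.051 (TPM + 0.1), 0.26 to 0.53 (1 library left out) and Tra −0.029 (TPM + 1), −0.030 (TPM + 0.1). For triploid female minus diploid male heads early, the values were Fru 0.72 (its own groups), 0.41 (D31 and D32 left out), 0.57 to 0.87 (1 library left out). Diploid female minus diploid male heads late gave Fru 0.63 to 0.90 (1 library left out). For diploid female minus haploid male heads late, the values were Dsx 0.53 to 0.63 (1 library left out) and Fru 0.70 (DESeq2), 1.05 (TPM + 1), 1.06 (TPM + 0.1), 0.68 (its own groups), 0.59 to 0.85 (1 library left out). Triploid female minus diploid male abdomens early gave Fru −0.14 (RLE, DESeq2), −0.037 to 0.24 (1 library left out) and Tra 0.043 (TPM + 1), 0.044 (TPM + 0.1), −0.096 to 0.049 (1 library left out). For diploid female minus diploid male abdomens late, the values were Fru 0.33 (RLE, DESeq2). Diploid female minus haploid male abdomens late gave Fru −0.14 (RLE, DESeq2). For triploid female minus diploid male abdomens late, the values were Dsx 0.99 (TPM + 1), 0.999 (TPM + 0.1), −0.010 to 0.49 (1 library left out) and Fru −0.13 (RLE, DESeq2), −0.030 (no filter), −0.038 (its own groups), −0.098 to 0.17 (1 library left out). Heads minus abdomens F14 diploid females gave Dsx 0.79 (RLE, DESeq2), 1.08 (TPM + 1), 1.09 (TPM + 0.1), 0.46 (its own groups). For heads minus abdomens F15 haploid males, the values were Fru 1.02 (TPM + 1), 1.03 (TPM + 0.1). Heads minus abdomens F15 diploid males gave Fru 0.69 (its own groups), 0.48 to 0.81 (1 library left out). For late diploid sex difference in heads minus that in abdomens, the values were Fru −0.033 to 0.28 (1 library left out). Diploid female minus haploid male heads early (length) gave Fru −0.037 to 0.046 (1 library left out). For diploid female minus diploid male heads late (length), the values were Tra −0.0029 to 0.0015 (1 library left out). Diploid female minus diploid male abdomens late (length) gave Fru −0.027 to 0.072 (1 library left out) and Tra −0.0075 (TPM of at least 5). For diploid female minus haploid male abdomens late (length), the values were Fru −0.079 to 0.0030 (1 library left out) and Tra −0.0055 (TPM of at least 5), −0.0013 to 0.0028 (1 library left out). Heads minus abdomens F2 triploid females (length) gave Tra −0.0011 to 0.0031 (1 library left out). For heads minus abdomens F14 diploid females (length), the values were Dsx −0.042 to 0.0031 (1 library left out). Heads minus abdomens F14 triploid females (length) gave Dsx −0.024 to 0.062 (1 library left out). For heads minus abdomens F3 haploid males (length), the values were Dsx −0.014 to 0.0018 (1 library left out) and Fru −0.058 to 0.050 (1 library left out). Heads minus abdomens F3 diploid males (length) gave Dsx −0.010 to 0.0019 (1 library left out) and Fru −0.14 to 0.057 (1 library left out). For heads minus abdomens F15 haploid males (length), the values were Tra −0.0026 to 0.00075 (1 library left out). Heads minus abdomens F15 diploid males (length) gave Dsx −0.029 to 0.0012 (1 library left out). For triploid minus diploid female heads F14 (length), the values were Fru −0.19 to −0.088 (1 library left out). Triploid minus diploid female abdomens F14 (length) gave Fru −0.10 to −0.056 (1 library left out). For diploid minus haploid male heads F3 (length), the values were Dsx −0.016 to 0.00042 (1 library left out) and Fru −0.19 to 0.010 (1 library left out). Diploid minus haploid male abdomens F3 (length) gave Fru −0.10 to 0.0060 (1 library left out). For diploid minus haploid male abdomens F15 (length), the values were Fru −0.11 to 0.0085 (1 library left out) and Tra −0.0014 to 0.0050 (1 library left out).

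Counts of genes called moved by over 1.5 times in these contrasts. F14 minus F2 diploid female heads went from 2156 to 3257 (TPM + 1), 4828 (its own groups). From 1736, the count for F14 minus F2 triploid female heads went to 1095 (TPM + 1), 1089 (TPM + 0.1), 308 (its own groups), 3030 (D31 and D32 left out). Diploid minus haploid male heads F3 went from 1780 to 960 (TPM + 1), 907 (TPM + 0.1), 378 (its own groups). From 12, the count for diploid minus haploid male heads F15 went to 1.03% of genes (DESeq2), 6 (TPM + 0.1), 128 (its own groups). F15 minus F3 haploid male heads went from 1587 to 3039 (its own groups). From 2015, the count for F15 minus F3 diploid male heads went to 649 (its own groups). Late minus early ploidy effect in male heads went from 393 to 921 (DESeq2), 216 (TPM + 1), 200 (TPM + 0.1). From 1259, the count for diploid minus haploid male abdomens F15 went to 2040 (DESeq2), 0 (its own groups). Late minus early ploidy effect in male abdomens went from 1184 to 1956 (DESeq2). From 2835, the count for diploid female minus haploid male heads early went to 4567 (its own groups). Triploid female minus diploid male heads early went from 2725 to 1776 (TPM + 1), 1640 (TPM + 0.1), 560 (its own groups). From 1051, the count for diploid female minus diploid male heads late went to 2372 (its own groups). Diploid female minus haploid male heads late went from 1127 to 3282 (its own groups). From 3148, the count for diploid female minus diploid male abdomens late (length) went to 861 (TPM of at least 5). Diploid female minus haploid male abdomens late (length) went from 3498 to 923 (TPM of at least 5). From 3859, the count for heads minus abdomens F14 diploid females (length) went to 2198 (TPM of at least 5). Diploid minus haploid male abdomens F15 (length) went from 1 to 3 (TPM of at least 5).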
